A study of Mus musculus with 14 samples.

Results

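The subject here is the baseline transcriptome of bone marrow cultures from healthy mice, the 4 libraries of the first phase that the labels place in the healthy group, of 14 samples in the whole series. The members are all the libraries with that group label. Marrow came from male mice of the inbred strain C57BL/6J, which were 8 weeks of age at allocation and, as controls, are described without the streptozotocin injections of the diabetic group. After 6 weeks, marrow progenitors were grown for 7 days with recombinant M-CSF, the macrophage colony-stimulating factor, in DMEM medium with 5 mmol/L glucose, and polyadenylated RNA was sequenced. The labels describe no sort or purity check of the cultures, and they leave unstated whether the 4 libraries stem from 4 animals, so the spread between the 4 replicates may be technical in part. The columns of these libraries carry the letter M. What M stands for is not labelled, and the match to the healthy group rests on elimination, the other columns having the D of diabetic. No other group was used, and neither a comparison between groups nor a test of expression was made.

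Macrophages take up and digest particles, dead cells and lipids, and they sense microbial products through surface and cytosolic receptors. M-CSF acts through the receptor tyrosine kinase encoded by Csf1r, and marrow progenitors kept in it are known to divide, stop making granule proteins and turn into adherent macrophages. Fresh marrow holds neutrophils and their precursors, monocytes, developing B cells and red cell precursors, each with transcripts that mark it.

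The table gave values for 17890 genes. A library held 19048195 to 19926267 estimated counts, a gene at about 1 TPM rested on a median of 27.9 counts, and 3 counts, taken as the floor for a count of 0, corresponded to 0.151 to 0.157 CPM, the count scaled to a common library size. TPM scales the counts by transcript length as well as by library, so it is the scale on which different genes were compared. In the text, 4 values in a row are replicates 1 to 4 in that order, and ± gives the SD over these 4 libraries (n = 4). The chi-square of the counts per gene between 2 libraries was 6.49 to 18.9, so no library repeated another within counting noise. All 4 measured Y-linked genes were expressed in each library, Eif2s3y at 111 ± 3.29 TPM and Ddx3y at 33 ± 3.35 TPM, as the male label asks.

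The label names macrophages, and the markers of that cell type went against it in part. Macrophage genes were present, among them Lyz2, Mpeg1 and Csf1r, yet the most abundant cell-type transcripts of the cultures were those of neutrophils, and genes of developing B cells, red cell precursors, platelets and basophils stood above many genes that define mature macrophages. The 3 macrophage markers differed in place. Lyz2 ranked just above Ngp, and Mpeg1 lay above Cd79a. Csf1r itself ranked 2031 in abundance, behind Ngp at rank 6 and Cd79a at rank 249. The macrophage identity list took 1.71% of all TPM, the late and surface neutrophil list 12% and the B-cell receptor list 0.221%. Most of the 12% rests on S100a9 and S100a8, which monocytes also make and which together took 11.1% of all TPM. The libraries are therefore referred to as the healthy cultures, with no cell type name. These are bulk libraries, in which fewer cells of a type and less RNA per cell cannot be told apart. The source of the transcripts of other cell types was not tested.

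Gene abundance was asked first: which transcripts fill these cultures. A gene was classed as expressed when it reached at least 1 TPM in each of the 4 libraries, at trace level when it stayed under 0.1 TPM in each with at least 1 library above 0, and not detected when it had 0 counts in all 4. By these limits 11374 of 17890 genes (63.6%) were expressed, 1844 were at trace level, 553 were not detected and 4119 lay between. The 63.6% is the share to set beside each count of expressed members of a list below. The median gene stood at 7.59 TPM and the median expressed gene at 24.2 TPM. There were 135 genes with a mean of at least 1000 TPM. The 10 most abundant genes took 17.8 ± 0.422% of all TPM, the 100 most abundant took 36.5 ± 0.701% and the 1000 most abundant 66.8 ± 0.6%.

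S100a9 and S100a8 led the list. They encode the calcium-binding subunits of calprotectin, the main cytosolic protein of neutrophils, which monocytes also make. S100a9 (NCBI gene 20202, chromosome 3, 90692630 to 90695721, GRCm38) stood at 57581, 62597, 61965 and 62177 TPM. S100a8 (NCBI gene 20201, chromosome 3, 90669071 to 90670034) stood at 53258, 49517, 48258 and 48822 TPM. Together they took 11.1 ± 0.0788% of all TPM, with replicate 1 lowest for S100a9 and highest for S100a8. The ratio of S100a9 to S100a8 was 1.08, 1.26, 1.28 and 1.27, so replicate 1 lay apart from the other 3.

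Ferritin followed. Ftl1, the light chain of this iron store, stood at 13872, 11258, 10179 and 10469 TPM, and Fth1, the heavy chain, at 10786, 9545, 7478 and 8138 TPM, both highest in replicate 1 and lowest in replicate 3. Lyz2, the lysozyme of macrophages and neutrophils, ranked 5 at 8501, 8593, 9625 and 8139.6 TPM, highest in replicate 3. Ngp, a neutrophil granule protein, ranked 6 at 8674, 7468, 7277 and 7509 TPM, highest in replicate 1. The adult beta-globin gene Hbb-bs ranked 7 and the alpha-globin genes Hba-a2 and Hba-a1 ranked 10 and 11. Genes of general use filled most of the next places: Eef1a1, the elongation factor that brings tRNA to the ribosome, at 7515 ± 589.5 TPM, Tmsb4x, the actin-binding thymosin, at 7504 ± 176 TPM, Actb at 4448 ± 216 TPM and Gapdh at 4157 ± 99.1 TPM. Of the 30 most abundant genes, the genes of myeloid cells or lysosomes beside those named above were Retnlg, Tyrobp, Ctsd, Lcn2, Psap and Chil3. Tyrobp, the signalling adaptor of myeloid receptors, stood at 3333 ± 421 TPM, and Psap, the precursor of lysosomal saposins, at 2795 ± 330.2 TPM.

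**Figure D1:**
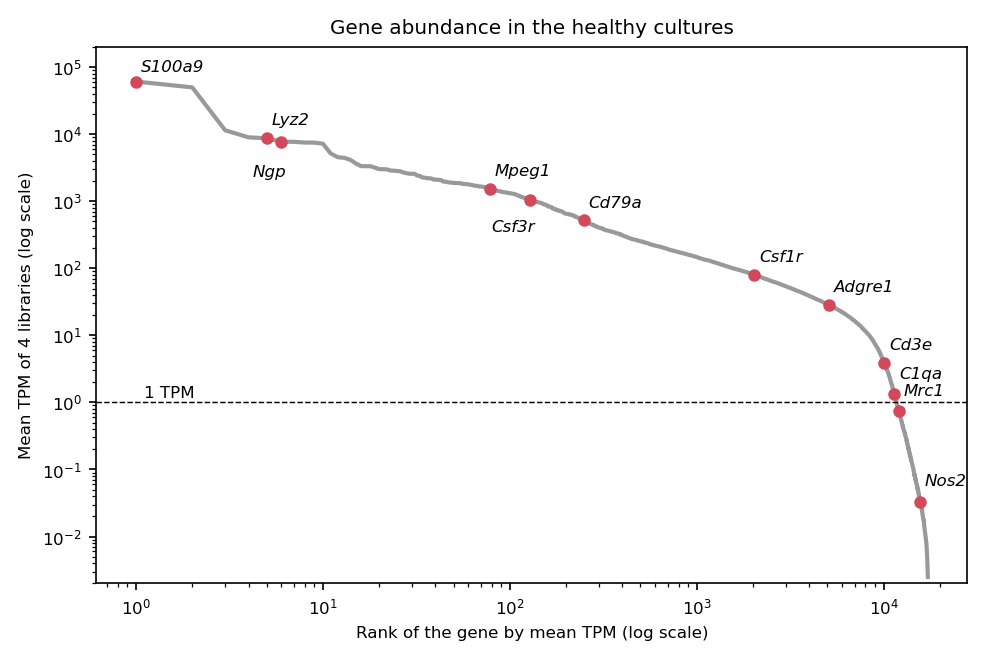
Mean TPM of each gene (vertical, log scale) against its rank (horizontal, log scale), over the 4 healthy libraries, with 12 genes marked in red and a dashed line at 1 TPM. S100a9, Lyz2 and Ngp lie among the first 6 genes, Csf1r lies at rank 2031, and Mrc1 and Nos2 lie under the line.

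The stretches just before the start sites of S100a8, S100a9, Hbb-bs and Hba-a1 are printed here because these 2 families, calprotectin and the globins, were the most abundant cell-type transcripts and differed in how they moved between replicates. Each line holds the 120 bases before the start given by RefSeq in build GRCm38.p6, read 5′ to 3′ on the gene's strand, and capitals mark the motifs that a search found.
S100a8, chr3:90668951-90669070, plus strand: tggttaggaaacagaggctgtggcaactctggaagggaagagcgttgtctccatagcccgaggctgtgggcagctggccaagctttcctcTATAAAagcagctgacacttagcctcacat
S100a9, chr3:90695722-90695841, minus strand: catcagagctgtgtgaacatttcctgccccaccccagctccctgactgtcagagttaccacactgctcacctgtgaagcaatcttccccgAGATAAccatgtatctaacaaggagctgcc
Hbb-bs, chr7:103827929-103828048, minus strand: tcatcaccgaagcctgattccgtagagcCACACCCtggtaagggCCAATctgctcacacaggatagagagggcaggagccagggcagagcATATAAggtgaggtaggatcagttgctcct
Hba-a1, chr11:32283552-32283671, plus strand: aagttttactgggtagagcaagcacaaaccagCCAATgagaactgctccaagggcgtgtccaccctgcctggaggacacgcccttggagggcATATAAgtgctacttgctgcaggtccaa
The search used TATAAA and ATATAA, forms of the TATA element that can overlap, on the gene's strand. AGATAA was sought on the same strand and is not counted here as a TATA form. It was the only motif of the search found before the S100a9 start. The search also used CCAAT, the CCAAT box, and CACACCC, the CACCC box of globin genes, on both strands. TATAAA lay 30 bases before the S100a8 start, AGATAA 30 bases before that of S100a9, and ATATAA 30 and 28 bases before those of Hbb-bs and Hba-a1. CCAAT lay 76 bases before the Hbb-bs start and 88 before that of Hba-a1, and CACACCC 92 bases before that of Hbb-bs. Of 14119 promoters of the same length, 3.12% held TATAAA, 1.66% ATATAA, 1.57% AGATAA, 24.9% CCAAT and 3.97% CACACCC. A match of letters is a description and shows no binding.

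Of 30 listed macrophage identity genes, 23 were expressed, against 63.6% of all genes. The list took 1.71 ± 0.111% of all TPM, most of it Lyz2 and the cathepsin Ctsd. The expressed members were mainly genes of phagocytes in general, and the lowest were genes of resident macrophages. Csf1r, the M-CSF receptor (NCBI gene 12978), stood at 77.5, 82.2, 87.7 and 74.8 TPM, highest in replicate 3 and lowest in replicate 4. Mpeg1 (NCBI gene 17476, chromosome 19, 12460770 to 12465285), which encodes the pore-forming perforin-2 of phagosomes, stood at 1355, 1587, 1681 and 1549 TPM, lowest in replicate 1. Cd68, a lysosomal glycoprotein of phagocytes, stood at 347, 360.3, 271 and 239 TPM, with replicates 1 and 2 above replicates 3 and 4. Adgre1, which encodes the F4/80 antigen, stood at 26, 31.3, 32.6 and 23.2 TPM. Lyz2 was 105 to 109.8 times as high as Csf1r in TPM, a ratio steady over the 4 libraries.

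Most genes of mature and resident macrophages named next lay under the 24.2 TPM of the median expressed gene. Trem2 and Gpnmb lay above it, and so did Cd68 and Adgre1, given before, the latter in all but replicate 4. Cd14, the co-receptor for lipopolysaccharide, stood at 24.3, 22.4, 14.5 and 12.6 TPM, and its levels in replicates 1 and 2 lay above those in replicates 3 and 4. Fcgr1, the high-affinity IgG receptor, stood at 6.03 ± 1.27 TPM and Trem2, a lipid-sensing receptor, at 25.8 ± 5.75 TPM. The complement chains C1qa, C1qb and C1qc stood at 1.34 ± 0.468 TPM, 7.25 ± 3.69 TPM and 4.79 ± 1.67 TPM, and C1qb was 12.4 TPM in replicate 3 against 3.94 to 7.06 TPM in the others. Mrc1, the mannose receptor, stood at 0.8, 0.8, 0.79 and 0.57 TPM and Mertk, a receptor for dying cells, at 0.37, 0.65, 0.32 and 0.48 TPM, both under 1 TPM in every library. Siglec1, the sialic acid receptor of resident macrophages, stood at 0.182 ± 0.0492 TPM, Timd4, a phosphatidylserine receptor, at 0.113 ± 0.015 TPM, and Marco, a scavenger receptor, was at trace level at 0, 0.05, 0 and 0.05 TPM. Vsig4, a complement receptor of resident macrophages, had counts in replicate 3 alone, 2 of them. Gpnmb, a glycoprotein of lipid-laden macrophages, was high among these genes, at 517, 558, 325 and 262 TPM, with replicates 1 and 2 above replicates 3 and 4.

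Most macrophage genes were lowest in the same library. Of 26 members with enough counts for a spread, 19 were lowest in replicate 4, where 21.3% of all 12389 genes kept were lowest. Such counts of the highest and lowest library use CPM, and in TPM 17 members were lowest in replicate 4, against 19.2% of all genes kept. The median coefficient of variation (CV, the SD as a share of the mean) of these members was 19.6%, and that of all genes kept was 8.11%. The summed share of the list was still close in the 4 libraries, at 1.7%, 1.78%, 1.79% and 1.55%, since Lyz2 and Ctsd made up most of it.

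**Figure D2:**
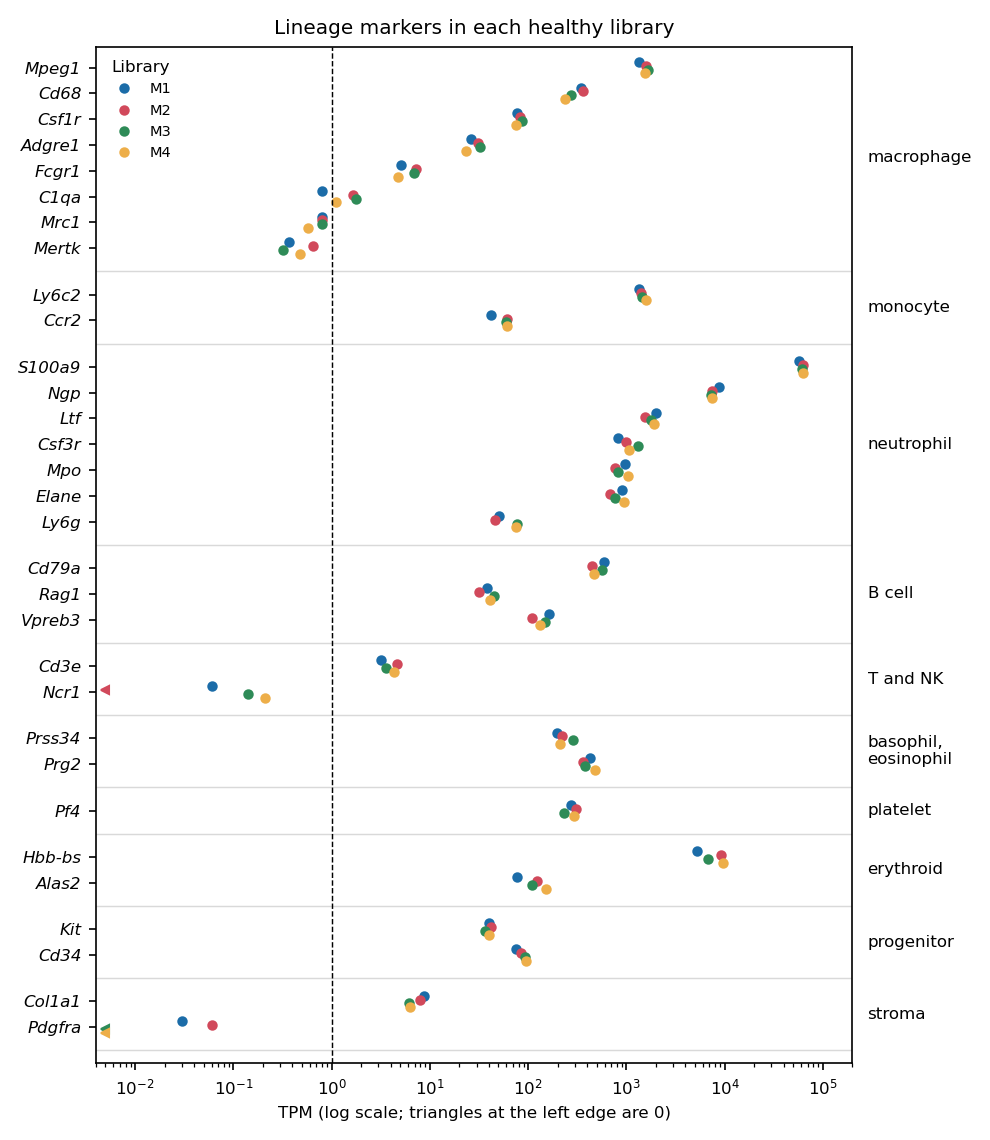
TPM (horizontal, log scale) of lineage markers in each of the 4 healthy libraries, M1 to M4 being replicates 1 to 4; each point is 1 library, triangles at the left edge are 0 and the dashed line is 1 TPM. The neutrophil and globin genes lie farthest to the right, Cd79a lies above Csf1r in each library, and Mrc1 and Mertk lie left of the line.

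All 14 genes of the inflammatory monocyte list were expressed, with a median of 358 TPM. Ly6c2, the surface antigen that marks these monocytes, stood at 1345, 1423, 1457 and 1587 TPM, close in the 4 libraries. Ccr2, the receptor for Ccl2 that lets monocytes leave the marrow, stood at 41.6, 60.8, 60.2 and 60.6 TPM, lowest in replicate 1 and nearly equal in the others. Plac8, also found in neutrophils and progenitors, stood at 1567 ± 83.5 TPM, and Chil3, a chitinase-like secreted protein of monocytes and immature neutrophils, at 3112, 2616, 2699 and 2313 TPM. F13a1, a coagulation factor subunit of monocytes, stood at 90.2 ± 26.4 TPM and Fn1, fibronectin, at 3.09 ± 1.01 TPM.

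Neutrophil genes were expressed at each stage of the granule series, 6 of 6 primary, 10 of 10 secondary and 16 of 16 late and surface genes. The medians were 483, 1221 and 449.9 TPM, against 7.59 TPM over all genes. Primary granules are filled at the promyelocyte stage. Mpo, their peroxidase, stood at 970.3, 767, 821 and 1043 TPM and Elane, neutrophil elastase, at 909.9, 679, 769.7 and 942 TPM, both higher in replicates 1 and 4 than in replicates 2 and 3. Prtn3, proteinase 3, stood at 458 ± 53 TPM and Ctsg, cathepsin G, at 509 ± 50.1 TPM.

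Secondary granules follow in myelocytes. Ngp (NCBI gene 18054, chromosome 9, 110419808 to 110423012) was 4 to 4.75 times as high as Camp, the cathelicidin, which stood at 2169, 1574, 1694 and 1740.4 TPM. Ltf, lactoferrin, stood at 1985, 1551, 1793 and 1929 TPM and Lcn2, a siderophore-binding lipocalin, at 3009, 2719.7, 3104 and 3137 TPM, both lowest in replicate 2. Of the 10 secondary granule genes, 7 were highest in replicate 1 in CPM, against 31.4% of all genes kept, and 6 in TPM, against 21.4%. Ngp, Camp, Ltf and Chil3 were among them on both scales.

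The genes of mature neutrophils had another order between libraries. Retnlg, a resistin-like secreted protein, stood at 2501, 3043, 4130.0 and 3701 TPM, Mmp8, neutrophil collagenase, at 744, 931, 1252 and 1194 TPM, and Cxcr2, the receptor that draws neutrophils into blood, at 162, 258, 335 and 262 TPM. All 3 were lowest in replicate 1 and highest in replicate 3. Ly6g, the antigen used to sort neutrophils, stood at 50.8, 45.8, 77.7 and 74.6 TPM, higher in replicates 3 and 4 than in replicates 1 and 2. Csf3r, the receptor for G-CSF, the growth factor of neutrophils, stood at 819, 991, 1303 and 1054 TPM and was 10.6 to 14.9 times as high as Csf1r, lowest in replicate 1. Of 16 late and surface genes, 9 were highest in replicate 3, against 22.8% of all genes kept (10 in TPM, against 33.3%). Among the stefin A genes, which are near-identical copies, Stfa1 stood at 93.7 ± 19.1 TPM, and how reads were split between the copies is uncertain.

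B-lineage genes were expressed from the recombination stage to the receptor. All 12 genes of the B-cell receptor list and 15 of 16 genes of B-lineage commitment and recombination were expressed. Cd79a (NCBI gene 12518, chromosome 7, 24897497 to 24901858), a signalling chain of the B-cell receptor, stood at 590.1, 445, 569.8 and 465 TPM, and its partner Cd79b at 506, 385, 499.5 and 394 TPM. Both were higher in replicates 1 and 3 than in replicates 2 and 4, and their ratio held at 1.14 to 1.18.

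Genes of earlier B-cell development were present as well. Vpreb3, a protein of precursor B cells, stood at 161, 109, 149 and 131 TPM. Rag1, the recombinase that cuts receptor genes, stood at 38.6, 31.3, 44.9 and 40.9 TPM and Rag2, its partner, at 4.44, 3.82, 6.88 and 5.56 TPM, both lowest in replicate 2 and highest in replicate 3. Dntt, which adds bases at the joints, stood at 11.4 ± 3.04 TPM, Vpreb1, a surrogate light chain, at 12.2 ± 3.76 TPM, and Vpreb2, a near-identical copy of it, at 0.762 ± 0.502 TPM. The transcription factors Pax5 and Ebf1, which fix the B-cell fate, stood at 33.9 ± 5.94 TPM and 21.1 ± 2.3 TPM, and Il7r, the receptor of their growth factor, at 58.6 ± 10.7 TPM. Of the 15 members with a spread, 10 were highest in replicate 3 and 9 lowest in replicate 2, where the shares of all genes kept were 22.8% and 24.4%. Of 8 plasma cell genes, 6 were expressed, against 63.6% of all genes, and their list median was 9.58 TPM, against 7.59 TPM over all genes. Jchain, which joins secreted antibodies, was low at 2.85 ± 0.627 TPM. Tnfrsf17, the plasma cell survival receptor, had 1 count in replicate 3 and 0 in the others.

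Globins made the erythroid list, red cell precursor genes, the most variable lineage list between the 4 libraries. It took 1.51%, 2.66%, 1.93% and 2.75% of all TPM, and 12 of 14 measured members were expressed. Hbb-bs stood at 5244, 9247, 6759 and 9580.4 TPM, Hba-a1 at 3071, 6004, 4488 and 7150.5 TPM and Hba-a2 at 5520.4, 8903, 6224 and 8227 TPM. Replicates 2 and 4 were high and replicate 1 was lowest in all 3, while Hbb-bs and Hbb-bt, like Hba-a1 and Hba-a2, are near-identical copies between which the split of reads is uncertain. Alas2, the erythroid heme synthesis enzyme, stood at 76.8, 123, 111 and 153 TPM and Slc4a1, the band 3 anion exchanger, at 66.4, 145, 112 and 170.4 TPM. The non-globin members thus shared the low level in replicate 1: all 12 members with a spread were lowest there and 10 were highest in replicate 4, where 30.2% and 21% of all genes kept were. The globin chaperone Ahsp was not analysed here.

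All 13 megakaryocyte and platelet genes were expressed. Pf4, the platelet chemokine stored in granules, stood at 274, 306, 232 and 296 TPM, Ppbp, its neighbour in the same granules, at 173 ± 33.7 TPM, and Itga2b, the platelet integrin chain, at 96.6, 97, 79.8 and 98.1 TPM. Replicate 3 was the lowest library for 12 of the 13 genes, and for 24.1% of all genes kept.

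Granule genes of basophils and eosinophils were present too. Prss34, a basophil protease, stood at 199, 219, 285 and 212 TPM and Mcpt8, another, at 133, 169, 193 and 136 TPM, both highest in replicate 3. Cpa3, a carboxypeptidase of mast cells and basophils, stood at 103 ± 10.9 TPM, whereas the connective tissue mast cell proteases Mcpt4, Tpsb2 and Cma1 stood at 0.025, 0.0525 and 0.158 TPM on average. Prg2, the eosinophil major basic protein, stood at 423, 358, 384 and 485 TPM and Epx, eosinophil peroxidase, at 9.45, 7.94, 12 and 12.6 TPM. The eosinophil list median was 10.3 TPM, against 7.59 TPM over all genes, so Prg2 lay far above most of its list. Of 10 eosinophil genes, 8 were highest in replicate 4, against 21% of all genes kept.

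T and natural killer (NK) cell genes were low but mostly above the trace level, with 12 of 14 T-cell genes and 5 of 12 NK genes expressed and list medians of 5.1 and 0.973 TPM. Cd3e, a chain of the T-cell receptor complex, stood at 3.21, 4.65, 3.57 and 4.28 TPM, and Ncr1, the NK receptor NKp46, at 0.06, 0, 0.14 and 0.21 TPM, the latter resting on at most 3 counts in a library. Nkg7, a granule membrane gene of killer cells, was the highest NK gene at 46 ± 5.31 TPM, and Prf1, perforin, stood at 0.335 ± 0.182 TPM. Among dendritic cell genes, Irf8, also a monocyte factor, stood at 115, 115, 125 and 131 TPM and Siglech, a plasmacytoid cell lectin, at 62.4, 64.8, 61.1 and 65.6 TPM, while Xcr1 and Batf3 of the cross-presenting type stood at 0.367 ± 0.164 TPM and 0.497 ± 0.282 TPM.

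Progenitor and cell division genes were expressed in every library. Myb, a factor of dividing progenitors, stood at 223, 211, 221 and 224 TPM, Cd34, the progenitor surface antigen, at 75.1, 84.9, 93.9 and 94.4 TPM, and Kit, the stem cell factor receptor, at 39.6, 42, 36 and 39.9 TPM. All 18 S phase and all 18 G2 and mitosis genes were expressed, with medians of 65 and 46.6 TPM. Pcna, the DNA polymerase clamp, stood at 399, 381, 342 and 351 TPM, Top2a, which untangles chromosomes, at 107, 119.9, 136 and 133 TPM and Mki67, the Ki-67 antigen, at 72.8, 82.7, 86.1 and 87.5 TPM. Pcna was higher in replicates 1 and 2, and Top2a and Mki67 were lowest in replicate 1.

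Stromal genes were low, with a median of 1.54 TPM against 7.59 TPM over all genes. Of 17, 9 were expressed, against 63.6% of all genes. Pdgfra, the growth factor receptor of marrow stromal cells, stood at 0.03, 0.06, 0 and 0 TPM, Col3a1, a fibroblast collagen, at 0.03, 0.05, 0.02 and 0.04 TPM and Lepr, the leptin receptor, at 0.138 ± 0.0695 TPM. Col1a1, the collagen of bone and fibroblasts, reached 8.74, 7.91, 6.14 and 6.25 TPM. Of osteoclast genes, Ctsk, the bone-digesting cathepsin K, stood at 20.4, 19.9, 12.2 and 8.06 TPM and Acp5, tartrate-resistant phosphatase, at 19.3, 21.1, 22.7 and 21.4 TPM, while Calcr, the calcitonin receptor of mature osteoclasts, was at trace level at 0.0075 ± 0.015 TPM and the fusion gene Dcstamp stood at 0.165 ± 0.0889 TPM.

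All 25 growth factor and cytokine receptor genes listed were expressed. Among colony-stimulating factor receptors the order was Csf3r, Csf2ra, Csf2rb and Csf1r in each of the 4 libraries. On curated transcripts the share of this list moved by over 1.5 times, and Csf1r has no predicted transcript. How far the order and the ratio of Csf3r to Csf1r rest on predicted models was not tested. Csf2ra, the binding chain for GM-CSF, stood at 279.8, 264, 295 and 289 TPM and Csf2rb, the signalling chain shared with IL-3 and IL-5, at 114, 137, 139.8 and 129.6 TPM. The interferon gamma receptor chains Ifngr1 and Ifngr2 stood at 229 ± 9.79 TPM and 106 ± 7.05 TPM, and the type I interferon receptor chains Ifnar1 and Ifnar2 at 48.3 ± 3.9 TPM and 128 ± 5.38 TPM. The insulin receptor gene Insr stood at 19.1 ± 0.657 TPM and Igf1r, the receptor of its relative IGF-1, at 18.4 ± 1.64 TPM.

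Most of the matching ligands did not reach the limit for an expressed gene. Of 15 measured haematopoietic cytokine genes, 3 were expressed: Tgfb1, a brake on inflammation, at 212, 196, 201 and 196 TPM, Csf1, which encodes M-CSF, at 18.7, 23.4, 27 and 19.3 TPM, and Flt3l, a dendritic cell growth factor, at 19.5, 19.8, 24.5 and 21.4 TPM. Csf1r was 3.25 to 4.15 times as high as Csf1. Il34, the second ligand of the M-CSF receptor, stood at 0.32, 0.06, 0.19 and 0 TPM, Csf2, GM-CSF, at 0.03 ± 0.06 TPM and Csf3, G-CSF, at 0.117 ± 0.141 TPM. The interferon beta gene Ifnb1 had 0 counts in all 4 libraries, which allows up to 0.157 CPM, and Il3 and Epo were not analysed here.

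Sensors of microbes were broadly expressed, with 14 of 16 genes of the Toll-like receptor list and all 13 cytosolic sensors. Tlr13, a sensor of bacterial ribosomal RNA, was the highest receptor of the family at 86.6, 102, 107 and 96.6 TPM, followed by Tlr2, the lipoprotein receptor, at 67.9, 74.7, 84.6 and 66 TPM, and Tlr4, the lipopolysaccharide receptor, stood at 16.1, 20.3, 20.1 and 19.5 TPM. Tlr3, which binds double-stranded RNA, was nearly absent at 0.17, 0.22, 0.07 and 0.23 TPM. Aim2, a sensor of cytosolic DNA, stood at 59.7 ± 4.82 TPM, Nlrp3, the inflammasome sensor of membrane damage, at 27.9, 34.5, 37.7 and 31.1 TPM, and Sting1, an adaptor of DNA sensing, at 36.9 ± 0.782 TPM. Casp1, the inflammasome protease, stood at 59.7 ± 1.89 TPM, its adaptor Pycard at 87.4 ± 3.94 TPM and the pore former Gsdmd at 104 ± 3.44 TPM.

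Among Fc receptors, the common signalling chain Fcer1g stood at 1126, 973, 1005 and 1003 TPM, the low-affinity receptor Fcgr3 at 624, 615, 661 and 598 TPM and the inhibitory Fcgr2b at 177, 157, 149 and 143 TPM. Fcgr3 was thus far above Fcgr1 in every library. The complement receptor chain Itgam (CD11b) stood at 738, 790.1, 811 and 769 TPM, with Itgb2, its partner, at 719 ± 48.1 TPM and Itgax (CD11c) at 11.4 ± 0.945 TPM. C5ar1, the receptor for the C5a fragment, stood at 192, 232, 240.2 and 195 TPM, and C3, the central complement component, at 221, 180.3, 216 and 207 TPM.

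Scavenger receptors differed widely in level. Cd36, a receptor for oxidised lipids and fatty acids, stood at 31.5, 41, 20.9 and 23.8 TPM and Msr1, the class A receptor, at 39.6, 57, 50.8 and 35.9 TPM, both highest in replicate 2, while Stab2, Scara3 and Scara5 averaged 0.102, 0.0075 and 0.0075 TPM. Of the 10 members with a spread, 8 were highest in replicate 2 (7 in TPM), against 24.8% of all genes kept (23.5% in TPM). Among C-type lectin receptors, Clec4d, a receptor for mycobacterial lipids, led at 634, 699, 732 and 627 TPM, and Clec4n (dectin-2), a fungal sensor, varied most widely, at 87.7, 111, 50.2 and 39.9 TPM. Of receptors for dead cells, Cd300lf stood at 349 ± 26.2 TPM and Axl at 9.64 ± 2.43 TPM, and Tyro3 at 0.205 ± 0.0835 TPM. Cd47 and Sirpa, the pair that restrains uptake, stood at 154 ± 13.2 TPM and 327 ± 15.6 TPM.

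Chemokine receptors of marrow and neutrophils led their list: Cxcr4, which holds cells in the marrow, at 366, 342, 380.2 and 378 TPM, Cxcr2 and Ccr1, which binds Ccl3 and Ccl5, at 136, 191, 209 and 165 TPM. Cx3cr1, the fractalkine receptor of patrolling monocytes and many macrophages, stood at 9, 7.53, 8.63 and 8.84 TPM. Ccr4, Ccr8 and Ackr2 stood at 0.0725 ± 0.0395 TPM, 0.0675 ± 0.0862 TPM and 0.125 ± 0.037 TPM.

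Among 25 chemokine genes, 15 were expressed, against 63.6% of all genes. Beside Pf4 and Ppbp, the highest were Ccl6, a myeloid chemokine, at 123, 211, 240.2 and 178 TPM, Ccl3 at 178, 187, 146 and 123 TPM, Ccl9 at 93.1, 108, 91.4 and 71.2 TPM and Ccl2, which recruits monocytes, at 86.5, 109, 107 and 55.1 TPM. The interferon-induced Cxcl9 and the monocyte chemokine Ccl8 had 0 counts in all 4 libraries, which allows up to 0.157 CPM, and Ccl24, an eosinophil chemokine, stood at 0.0275 ± 0.055 TPM. The list varied more than the median gene, with a median CV of 22.8% over 17 members, 13 of them highest in replicate 2, against 24.8% of all genes kept.

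Inflammatory cytokine genes were low to moderate, 12 of 18 being expressed, against 63.6% of all genes. Il1b, the inflammasome-processed interleukin, was the highest at 24.5, 80.8, 114 and 46.6 TPM and spanned the widest range, lowest in replicate 1 and highest in replicate 3. Tnf, tumour necrosis factor, stood at 27.1, 31.9, 28.5 and 21.3 TPM and Il12a, a subunit of IL-12 and IL-35, at 34.2, 28.4, 32.2 and 28.9 TPM. Il6, an acute phase inducer, stood at 2.73, 4.46, 2.67 and 2.74 TPM and Il12b, the subunit that inflammatory IL-12 and IL-23 need, at 0.15, 0.35, 0.44 and 0.19 TPM, under 1 TPM in every library.

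Of 13 inducible effector enzyme genes, 9 were expressed, against 63.6% of all genes. Nos2 and Arg1, which mark polarised macrophages, were close to absent. Nos2, the inducible nitric oxide synthase of classical activation, stood at 0.05, 0.05, 0.03 and 0 TPM on at most 2 counts in a library. Arg1, the cytosolic arginase of alternative activation, stood at 0.13, 0.07, 0.2 and 0.13 TPM, while Arg2, the mitochondrial arginase, stood at 133, 156, 189 and 158 TPM. Retnla, another gene of alternative activation, was 0 in 3 libraries and 0.2 TPM in replicate 4. In contrast, Chil3, listed with these genes, was among the 30 most abundant of all, so 7 of 13 members of the list were expressed but 1 of them took most of its TPM. Hmox1, the heme-degrading oxygenase, stood at 688, 527, 425 and 436 TPM, highest in replicate 1, and Acod1, which makes itaconate, at 40, 49, 52 and 36.8 TPM. Alox5ap, which presents arachidonate for leukotriene synthesis, stood at 878, 943, 1011 and 947 TPM and Ptgs2, the inducible prostaglandin synthase, at 3.82 ± 1.42 TPM.

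The phagocyte NADPH oxidase, which makes superoxide, was expressed: the membrane chains Cyba and Cybb stood at 1061, 1003, 967 and 935 TPM and 238, 241, 246 and 237 TPM, and the cytosolic subunits Ncf1 and Ncf4 at 543 ± 21.2 TPM and 311 ± 24.7 TPM. The other oxidases Nox1, Nox4, Duox1 and Duox2 were at trace level, averaging 0.065, 0.005, 0.005 and 0.005 TPM. The oxidase list had a median CV of 5.13%.

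All 15 cathepsin and lysosomal protease genes were expressed, led by Ctsd at 3439.6, 3708, 3279 and 2912 TPM and Ctsb at 1289.9, 1328, 1057 and 862 TPM, both lowest in replicate 4. Class II presentation genes were present: Cd74, the invariant chain, stood at 412, 424, 440.3 and 341 TPM and H2-Aa, a class II alpha chain, at 169, 192, 178 and 157 TPM, again lowest in replicate 4. H2-Ea, the E alpha chain, which the b haplotype of this strain is known not to make, was at trace level at 0, 0, 0 and 0.09 TPM. Class I presentation was higher, with B2m at 1968 ± 116 TPM, H2-D1 at 1877 ± 142 TPM and H2-K1 at 883 ± 74.8 TPM, and the class I genes share sequence, so their separate levels are uncertain.

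Interferon-induced genes were expressed although Ifnb1 was not detected, and most were highest in the same library. Ifitm3, an antiviral membrane protein, stood at 476, 555, 714 and 594 TPM, Isg15, a ubiquitin-like protein, at 39.8, 59.8, 55.5 and 57.2 TPM, Irf7, the factor that amplifies interferon, at 16.4, 17.2, 31.9 and 21.3 TPM, and Oasl2, of the oligoadenylate synthase family, at 16.7, 29.5, 48.8 and 30 TPM. Of 18 members, 15 were highest in replicate 3 and 14 lowest in replicate 1, with a median CV of 24.1%, and among all genes kept 22.8% and 30.2% were. In TPM the same numbers of members, 15 and 14, stood beside 33.3% and 40.7% of all genes kept. The Ifit and Oas genes have close relatives that can share reads, and Mx1 and Mx2 were not analysed here.

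Of 29 myeloid transcription factor genes, 27 were expressed. Spi1, which encodes PU.1, the factor shared by macrophages, neutrophils and B cells, stood at 395, 393, 417 and 392 TPM with a CV of 2.28% in CPM. Spib, its relative of B and plasmacytoid cells, stood at 216 ± 26.1 TPM. The granulocyte factors Cebpe and Gfi1 stood at 145, 107, 115 and 118 TPM and 35.9, 28.2, 28.7 and 31.6 TPM, both highest in replicate 1, and Cebpa, the factor of myeloid commitment, at 74.1, 72.5, 77.9 and 83.7 TPM. Klf4, a monocyte factor, stood at 12.1, 13.7, 9.19 and 10.4 TPM, and the lipid receptors Pparg and Nr1h3 (LXR alpha) at 3.98, 4.42, 2.7 and 2.63 TPM and 3.34, 3.03, 2.14 and 2.22 TPM. Gata6, the factor of peritoneal macrophages, was at trace level at 0.0075 ± 0.015 TPM, and Spic, of iron-recycling macrophages, stood at 1.35 ± 0.486 TPM. Of 18 measured transcription factors of other lineages, 7 were expressed, against 63.6% of all genes, and the list median was 0.425 TPM. Those named here as foreign to blood were at or near 0. Myod1 of muscle had no count, Sox10 of neural crest stood at 0.01 ± 0.02 TPM and Hnf4a of liver at 0.055 ± 0.0311 TPM.

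For glucose transport and pyruvate kinase 1 isoform led and the form of liver cells was near 0. Of glucose transporters, Slc2a3, a high-affinity carrier, led at 184, 217, 241 and 220.4 TPM, 6.98 to 7.51 times the level of Slc2a1, the general carrier, at 26.4, 30.1, 32.4 and 29.3 TPM. Slc2a6, a lysosomal carrier of myeloid cells, stood at 49, 56.2, 70.8 and 50.9 TPM, and Slc2a2 of liver and beta cells had a value above 0 in replicate 1 alone, 0.04 TPM. Of hexokinases, the order was Hk3, Hk1 and Hk2 in each library, at 256, 244, 292 and 269 TPM, 88.2, 81.9, 90.1 and 91 TPM and 34.1, 37.2, 39.4 and 41.8 TPM. Pkm, the pyruvate kinase of most tissues, stood at 1692, 1528, 1558 and 1522 TPM and Pklr, that of liver and red cells, at 0.1, 0.04, 0.04 and 0.07 TPM. Ldha, which makes lactate, stood at 637 ± 42.7 TPM and Ldhb at 11 ± 1.35 TPM.

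The pentose phosphate pathway, which supplies NADPH, was high, with Taldo1, transaldolase, at 1109.8 ± 41.6 TPM, Pgd at 1076, 902, 872 and 908 TPM and G6pdx, its first enzyme, at 357, 326, 322 and 311 TPM, the last 2 highest in replicate 1. All 20 Krebs cycle genes were expressed, with a median of 115 TPM and a median CV of 4.78%. Pygl, the liver-type glycogen phosphorylase that neutrophils also use, stood at 581 ± 19.7 TPM, while Pck1, the gluconeogenic enzyme, was at trace level at 0.03 ± 0.02 TPM and Pck2, its mitochondrial form, stood at 47 ± 4.36 TPM.

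Long-chain acyl-CoA synthetases activate fatty acids for storage, membranes or oxidation. Acsl5 led them at 102, 110.4, 119 and 112 TPM and was 1.51 to 1.82 times as high as Acsl1, the gene named in the series title, at 65.8, 73.4, 65.8 and 69.4 TPM. Acsl4, which prefers arachidonate, stood at 28, 32.2, 32.3 and 29.5 TPM and Acsl3 at 11.7 ± 0.859 TPM, and Acsl6 was not analysed here. Predicted transcript models took 81.3% of the TPM of Acsl1, so its level depends on them. Of carriers with the same activity, Slc27a4 stood at 98.4 ± 5.97 TPM and the liver form Slc27a5 was at trace level at 0.02 ± 0.04 TPM. Fasn, fatty acid synthase, stood at 73.1 ± 4.38 TPM, Acly, which supplies its acetyl-CoA, at 201 ± 5.76 TPM, Scd2, a desaturase, at 136 ± 18.3 TPM and Cpt1a, the gate to oxidation, at 38.4 ± 2.41 TPM. Plin2, the lipid droplet coat, stood at 266 ± 40.2 TPM and Fabp5, a fatty acid carrier, at 257 ± 49 TPM.

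All 16 cholesterol synthesis and uptake genes were expressed, with a median of 96.1 TPM, Fdps, farnesyl diphosphate synthase, at 492, 496, 505 and 443 TPM and Hmgcs1, an early enzyme, at 232, 210.5, 213 and 195 TPM. Of the 16 genes, 15 were highest in replicate 1 and 13 lowest in replicate 4 in CPM, against 31.4% and 21.3% of all genes kept. In TPM the counts were 13 and 13, against 21.4% and 19.2%. The cholesterol exporters were low, Abca1 at 0.41, 0.55, 0.52 and 0.6 TPM and Abcg1 at 2.51, 3.97, 4.06 and 3.65 TPM, and Apoe, which carries the exported lipid, stood at 92.7, 80.7, 65.5 and 79.1 TPM. Iron genes beside ferritin were Slc40a1, the iron exporter ferroportin, at 204, 234, 217 and 199 TPM and Tfrc, the transferrin receptor, at 218 ± 22.2 TPM.

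**Figure D3:**
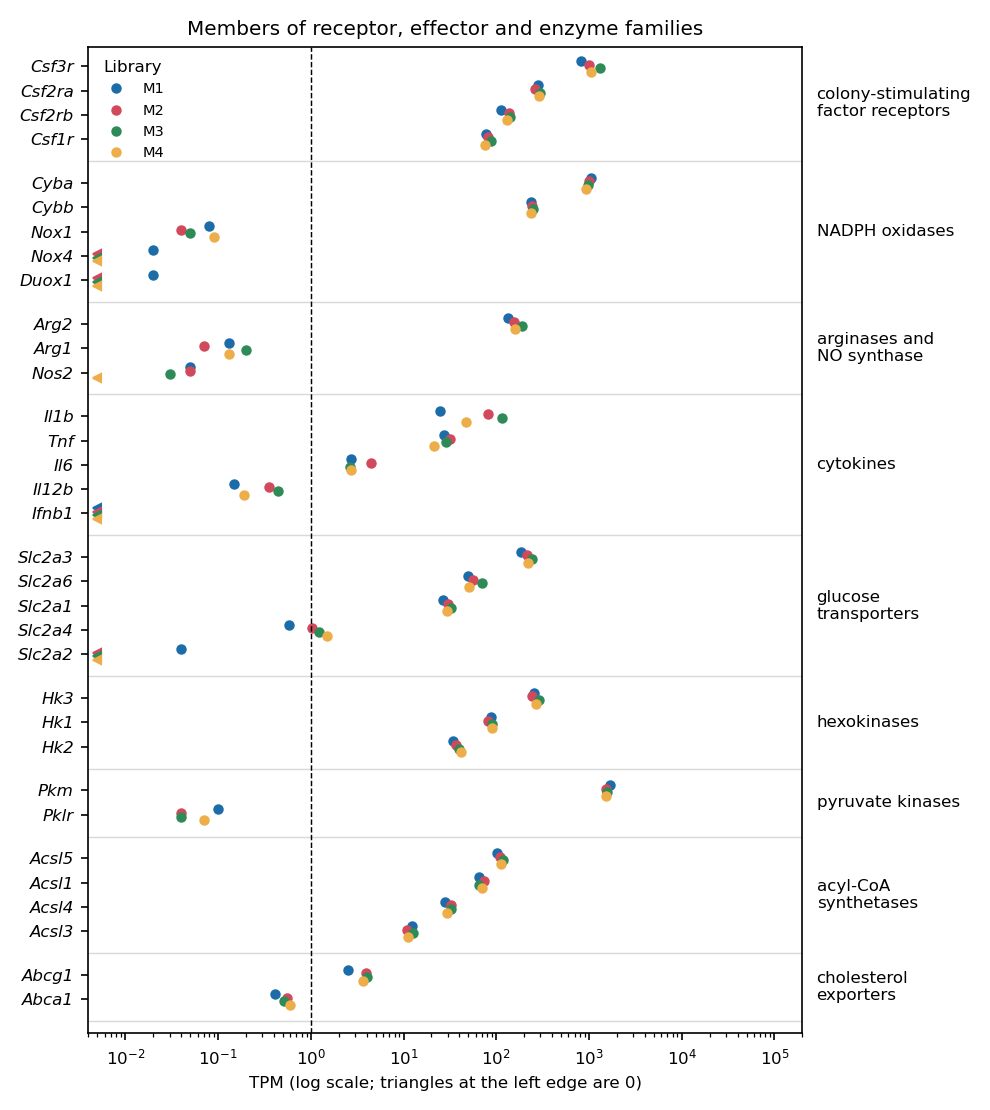
TPM (horizontal, log scale) of members of receptor, effector and enzyme families in each of the 4 healthy libraries, M1 to M4 being replicates 1 to 4; each point is 1 library, triangles at the left edge are 0 and the dashed line is 1 TPM. Within a family the members lie far apart, as with Pkm at 1575 TPM and Pklr at 0.0625 TPM on average, while for members above the line in each library the 4 libraries lie close, Il1b being the widest.

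The spread over the 4 replicates was then asked for each gene, on CPM scaled by TMM, which adjusts library sizes for their make-up. The common biological coefficient of variation, the part of the spread beyond counting error estimated by edgeR, was 9.26%, and the median CV was 8.11% over 12389 genes. It fell to 7.63% without replicate 1 and lay between 9.54% and 9.89% without any 1 of the others, so replicate 1 stood farthest from the rest. Of 7616 genes with a mean of at least 20 CPM, the median CV was 6.4% and the percentiles 5 and 95 were 2.25% and 16.2%, where counting alone gives a median of 2.84%. A CV over 30% was seen for 57 of them.

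The 15 most variable genes came from several groups. Il1b was first, with a CV of 57.3% and 18.8, 60.3, 82.7 and 34.6 CPM. Next were Pmp22, a myelin and membrane protein, at 31.1, 39.7, 14.5 and 11.8 CPM, Anpep, the surface aminopeptidase CD13, at 49.9, 43.2, 22.8 and 14.3 CPM, and Clec4n at 57.9, 71.4, 31.3 and 25.1 CPM. All 3 were higher in replicates 1 and 2 than in replicates 3 and 4. Rbm3, an RNA-binding protein known to be induced by cold, stood at 479.5, 461, 214 and 206 CPM, replicates 1 and 2 lying above replicates 3 and 4. The interferon-induced Oas2, Ddx60 and Oasl2 had CVs of 42.4%, 40.9% and 39.7%. Hspa1a, the inducible heat shock protein, stood at 74.2, 134, 98.9 and 186 CPM, and Ank1, which anchors the red cell membrane skeleton, had a CV of 39.4%. Others were Fam177a2, Rpl37rt, Tusc1 and Cd300ld, at 45.7%, 41.9%, 41.2% and 40.9%.

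The 10 steadiest genes were of general use, led by Asnsd1 at 112, 112, 112 and 112 CPM, Rab22a, a small GTPase of endosomes, at 34.3, 34.3, 34.4 and 34.3 CPM and Eml4, a microtubule-binding protein, at 76.8, 76.2, 76 and 76.6 CPM, followed by Tfe3, Cdca4, Cacul1, Spin1, Ppm1a, Pigx and Cyb5b. Their CVs of 0.216% to 0.635% lay under the counting error at their level, 1.74% to 4.46%, so their order among themselves has no meaning.

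**Figure D4:**
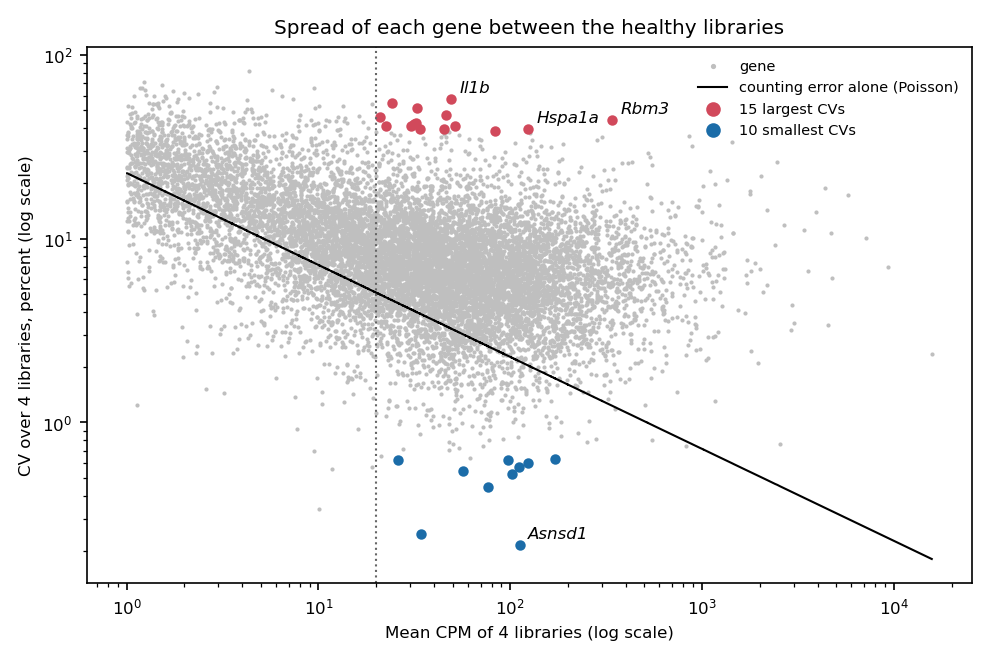
CV over the 4 healthy libraries (vertical, percent, log scale) against mean CPM (horizontal, log scale) for each gene with a mean of at least 1 CPM; the black line is the CV that counting alone would give, the dotted line marks 20 CPM, and red and blue points are the 15 largest and 10 smallest CVs above it. Il1b at 57.3% lies highest of the red points and the blue points lie under the line.

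Gene lists differed in spread. The reference housekeeping genes had a median CV of 4% and took 2.69%, 2.67%, 2.56% and 2.59% of TPM, S phase genes had 4.14%, and erythroid and interferon-induced genes had 31.1% and 24.1%. Cytoplasmic ribosomal protein genes took 6.03%, 5.41%, 5.34% and 5.66% of TPM. Of 34, 29 were highest in replicate 1 and 26 lowest in replicate 3, against 31.4% and 24.1% of all genes kept. In TPM the counts were 25 and 22, against 21.4% and 15.3%. Over all genes kept, the highest library was replicate 1 for 31.4% and replicate 4 for 21% of genes in CPM, and in TPM replicate 1 was highest for 21.4% and lowest for 40.7%. Most erythroid and interferon-induced genes were thus low in replicate 1, in which ribosomal, ferritin and cholesterol synthesis genes were high. Chaperones of the endoplasmic reticulum took 0.333%, 0.379%, 0.396% and 0.411%, lowest in replicate 1, and immediate early genes, which respond within minutes to handling of cells, took 0.0817%, 0.082%, 0.093% and 0.0819%, with replicate 3 above the rest. The part that any of these differences played in the others was not tested.

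**Figure D5:**
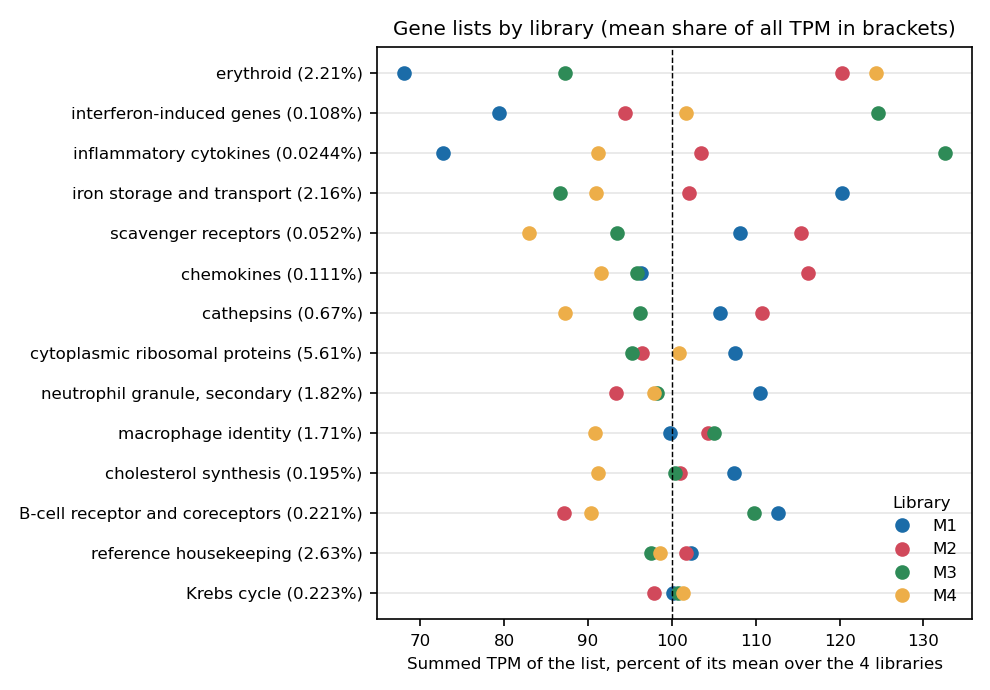
Summed TPM of 14 gene lists in each of the 4 healthy libraries, as percent of the list's own mean (horizontal; the mean share of all TPM stands in brackets); each point is 1 library, M1 to M4 being replicates 1 to 4. The erythroid list spreads most and is lowest in replicate 1, and of the lists shown the Krebs cycle and reference housekeeping lists spread least.

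Some levels rest on how transcripts were assigned. Predicted transcript models took 19.4% of all counts and 58.9% of the TPM of Mpeg1, but none of that of Csf1r, Lyz2, Ngp and Cd79a. Rps6, a ribosomal protein gene, stood at 48.6 ± 2.5 TPM while its pseudogene Rps6-ps4 stood at 2573 ± 105 TPM, and these near-identical copies cannot be told apart here. Lyz1, the close copy of Lyz2, stood at 626 ± 43.3 TPM, and the ratio of Lyz2 to Lyz1 was 13.2 to 14.4.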

How the data were processed

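Polyadenylated RNA of the 4 healthy first-phase libraries was analysed, with no other sample. SOAPnuke 1.5.6 removed poor reads and a program written as HISTA2 2.1.0 aligned the rest to mm10, per the labels' protocols (GRCm38 in the submitters' processing notes). Which quantifier, annotation release and strand setting followed is not given in the sources used here. The deposited estimated counts are given per RefSeq transcript, per the file headers. The authors' TPM values sum to 1000000 in each library, and the authors' FPKM values, deposited beside them, served as an alternative. A further 28 value columns, of other samples, group means or normalized counts, were not used.

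The 60072 transcript entries were summed to 17890 genes, and 17836 of these found a symbol among the RefSeq genes of build GRCm38. Levels were compared between genes in TPM. For the spread, counts were rounded to whole numbers, and genes with enough counts were kept by edgeR 4.0.16 (filterByExpr, TMM factors, common dispersion; R 4.3.3), which left 12389. Depth was 19048195 to 19926267 counts, so intervals and floors cover counting error only. The spread script was tested on simulated counts. Alternatives were FPKM, curated transcripts alone, each gene's most abundant transcript, second entries left out, counts in place of TPM, other limits for an expressed gene, DESeq2 1.42.0 size factors, library totals, other count filters, and each library left out.

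The members and the 65 gene lists were chosen with earlier results of these data known. The rule for named genes took the 5 markers Csf1r, Lyz2, Mpeg1, Ngp and Cd79a, the 30 most abundant genes, up to 6 highest and up to 6 trace or undetected members of each list, and the 15 largest and 10 smallest CVs among genes with a mean of at least 20 CPM, with gene models lacking a proper symbol counted but not described. A few genes that the rule took are not reported here. Of 278 genes named, 205 came from this rule and 73 were named after their values were seen, mostly low members of a list.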

Additional observations from a re-analysis of the deposited data

Results flagged for a closer look

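A value was taken to stand apart when the gap between 1 library and its nearest neighbour, divided by the range of all 4, was above Dixon's critical value for 4 samples at the 95% level. This was looked at for 343 values, the shares of the gene lists and the levels of the genes named, and 36 met it (10.5%). A gene with counts in 1 library alone meets it by construction. Of the 295 list shares and genes with a mean of at least 10 counts, 16 met it (5.42%), while chance alone flags about 1 in 20 such groups. The share flagged was thus near that rate, and no single flag shows a trait of a replicate. The library that stood apart was replicate 1 in 12, replicate 2 in 7, replicate 3 in 12 and replicate 4 in 5 of all 36. This tally includes the genes with counts in 1 library alone.

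Among the values flagged, replicate 1 was apart in several myeloid genes. It was low for S100a9 (57581 TPM) and for Ccr2 (41.6 TPM against 60.2 to 60.8 TPM in the others), and high for Ngp (8674 TPM) and Tyrobp (3961 TPM). Its share of TPM on late and surface neutrophil genes was low (11.8%), as was that on transcription factors of other lineages (0.0142%).

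Replicate 2 was high for Il6 (4.46 TPM against 2.67 to 2.74 TPM in the others), Tfrc (251 TPM) and the S100 proteins (11.9% of TPM), and low for Pycard (81.5 TPM). Replicate 3 was high for Spi1 (417 TPM), Scd2 (163 TPM), Ackr2 (0.18 TPM, on 5 counts), the immediate early genes (0.093% of TPM) and the gasdermins and caspases (0.0541%), and low for Itga2b (79.8 TPM). Replicate 4 was low for Mrc1 (0.57 TPM).

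The other 19 genes rest on 1 or 2 counts in a library and carry no weight. Pck1 was 0 in replicate 1 alone, and the rest had a value above 0 in 1 library: Calcr 0.03, Ccl24 0.11, Csf2 0.12, Duox1 0.02, Duox2 0.02, Gata6 0.03, H2-Ea 0.09, Mcpt4 0.1, Nox4 0.02, Retnla 0.2, Scara3 0.03, Scara5 0.03, Slc27a5 0.08, Slc2a2 0.04, Sox10 0.04, Tnfrsf17 0.08, Tpsb2 0.21 and Vsig4 0.14 TPM.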

How the results depend on the processing

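No paired analysis was possible because only 1 group was described and no groups were compared. With FPKM all 30 of the most abundant genes stayed among the first 30, and with each library left out in turn 29 to 30 did. The 10 most abundant genes took 17.8% of TPM, 17.6% to 18% with each library left out, 18.1% without second entries, 20.1% on curated transcripts, 19.6% on the most abundant transcript of each gene, and 6.38% of the estimated counts, which are not divided by length. The number of genes expressed was 9457 at a limit of 5 TPM, 12047 at 0.5 TPM and 10153 on curated transcripts, against 11374. Genes not detected numbered 553 over 4 libraries, 802 to 873 over any 3, since fewer libraries leave more genes at 0, and 2423 on curated transcripts, so absence is limited by depth and annotation. The common biological coefficient of variation, 9.26%, was 7.63% to 9.89% with each library left out and 9.01% to 9.43% under the other filters and scalings. Of 65 list shares, 65 stayed within 1 SD with FPKM, 57 without second entries, 19 on the most abundant transcript, 23 on curated transcripts and 8 with estimated counts, where 29 moved by over 1.5 times, erythroid and late neutrophil genes among them. On curated transcripts growth factor receptors and long-chain acyl-CoA synthetases moved by over 1.5 times, from 0.265% to 0.16% and from 0.0347% to 0.0224% of TPM. The causes of these moves were not tested.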

Other observations

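Antioxidant genes formed a further group that was expressed throughout, all 18 of the glutathione and thioredoxin list, with a median of 150.1 TPM. Gpx1, glutathione peroxidase, stood at 908, 1089, 1028 and 1218 TPM, and Gsr, which regenerates glutathione, at 529, 619, 599 and 563 TPM. Slc7a11, the cystine importer, stood at 56.5, 61.5, 49.4 and 57 TPM, and Sod2, the mitochondrial superoxide dismutase, at 49.2, 48.4, 39.7 and 36.3 TPM. Of 18 members, 11 were lowest in replicate 3 in CPM, against 24.1% of all genes kept, and 10 in TPM, against 15.3%.

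Among immediate early genes, Zfp36, which destabilises cytokine mRNA, stood at 199.8, 202, 269.8 and 216 TPM, Fos at 76, 83, 78.6 and 63.1 TPM and Jun at 73.6, 68.4, 75.8 and 71.2 TPM. Among chaperones of the endoplasmic reticulum, Calr, calreticulin, stood at 769, 956, 1055 and 1123 TPM and Hspa5, BiP, at 400.4, 509, 505 and 539 TPM. The polyamine enzyme Odc1 stood at 142, 169, 165 and 183 TPM and the serine synthesis enzyme Phgdh at 192, 185, 174 and 194 TPM.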
